A study of Mus musculus with 15 samples.

Results

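In wild type liver, 1308 of 53980 broad H3K9me3 peaks on chromosomes 1 to 19 (2.42%, interval 2.3 to 2.56) shared at least 1 bp with an H3K4me3 peak. These dual-marked peaks were chosen by their overlap in the wild type lists, so the overlap itself is a description and not a finding. H3K4me3 came from both wild type libraries at 161 of them, from replicate 1 alone at 1059 and from replicate 2 alone at 88. The set with replicate 1 alone had a median width of 3427 bp, and 182 of these peaks lay at the 3′ end of a gene, many of them zinc finger (Zfp) genes. The set with both replicates had a median width of 1126 bp, and it included 20 peaks at gene starts, 6 at 3′ ends and the imprinted gene Peg13. In knockout liver 92.5% of the 1308 still overlapped an H3K9me3 peak, against 65.5% of all wild type H3K9me3 peaks. At a like width the shares were closer, with 98.9% of dual-marked and 97.5% of other peaks from 2000 to under 5000 bp. Peaks of both marks were overlapped by 61.2% of the 1308, and by 14% without knockout H3K4me3 replicate 1.

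The libraries came from liver of C57Bl/6 mice 8 to 12 weeks old, either wild type (WT) or Uhrf1hepKO (KO), a knockout of Uhrf1 in hepatocytes. UHRF1 protein brings the maintenance DNA methyltransferase to newly copied DNA. Nuclei were digested with micrococcal nuclease to single nucleosomes, and the lists used here came from 1 WT and 1 KO H3K9me3 library, 2 WT and 2 KO H3K4me3 libraries, and 2 WT and 1 KO H3K27me3 libraries at baseline. The labels put the H3K9me3 libraries and H3K4me3 replicate 2 of both genotypes in round 2, name no round for replicate 1, and do not tell whether replicates are separate animals. Whole liver also holds cells that keep Uhrf1, and the Cre driver is not given in the sources used here. The replicate 2 H3K4me3 libraries carry an antibody tag that names H3K9me3, against their titles, and were grouped by title. Of the H3K4me3 length of WT replicate 2, 0.456% lay in H3K9me3 peaks, against 2.32% of that of replicate 1. No test was made, because H3K9me3 had 1 library per genotype and the peak lists give no read counts. The 95% intervals (Clopper-Pearson, exact) reflect counting alone, and neighbouring peaks are not independent.

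H3K4me3 is the mark of active and poised gene starts, laid down there by the SET1 and MLL complexes on DNA that is mostly unmethylated. H3K9me3 is written by SETDB1, SUV39H1 and SUV39H2, silences repeats and gene clusters, and is often found with DNA methylation. The marks seldom lie together on the same nucleosome. A base called for both in bulk liver can come from different cells or from the alleles of the mother and the father, as at imprinted genes, where the methylated allele is known to carry H3K9me3 and the other H3K4me3. Zfp genes of the KRAB family end in a long exon that encodes the repeated zinc fingers, and this exon is a known place of H3K9me3.

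Bases called for both marks were rare at gene starts. Of 31396 RefSeq promoter windows (GRCm38.p6, 250 bp before to 50 bp after a start), 14377 held WT H3K4me3 and 345 held WT H3K9me3, and 25 windows of 23 genes held a base in both. The 31396 windows belong to 25748 genes, so a gene can have more than 1, and a window can lie inside the gene. The Mest window does, in a gene that runs from 30733506 to 30748466 of chromosome 6. Counts at gene starts further below use the outer bound of genes with a known strand, so they leave out such windows. A set of 5 is printed below in the direction of the gene, to show how different such windows were in their sequence. Bases that lay in both marks are in capitals and the other bases in lower case.
Abcg2: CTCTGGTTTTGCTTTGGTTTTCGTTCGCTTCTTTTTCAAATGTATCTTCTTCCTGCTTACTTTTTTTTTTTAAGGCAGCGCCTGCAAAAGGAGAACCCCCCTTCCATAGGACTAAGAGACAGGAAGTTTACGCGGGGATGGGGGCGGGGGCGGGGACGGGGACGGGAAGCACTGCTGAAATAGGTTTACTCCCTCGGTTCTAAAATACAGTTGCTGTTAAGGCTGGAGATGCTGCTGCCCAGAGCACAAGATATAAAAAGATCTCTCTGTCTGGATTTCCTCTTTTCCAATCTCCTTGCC
Vmn2r29: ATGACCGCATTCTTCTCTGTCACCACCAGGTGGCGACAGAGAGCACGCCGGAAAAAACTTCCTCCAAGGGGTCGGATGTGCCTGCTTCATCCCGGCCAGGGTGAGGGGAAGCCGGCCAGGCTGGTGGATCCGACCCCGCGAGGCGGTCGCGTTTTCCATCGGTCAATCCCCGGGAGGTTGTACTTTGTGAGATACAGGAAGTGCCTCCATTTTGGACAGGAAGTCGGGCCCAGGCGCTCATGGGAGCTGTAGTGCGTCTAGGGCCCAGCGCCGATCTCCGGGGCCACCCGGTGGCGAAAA
Tmem267: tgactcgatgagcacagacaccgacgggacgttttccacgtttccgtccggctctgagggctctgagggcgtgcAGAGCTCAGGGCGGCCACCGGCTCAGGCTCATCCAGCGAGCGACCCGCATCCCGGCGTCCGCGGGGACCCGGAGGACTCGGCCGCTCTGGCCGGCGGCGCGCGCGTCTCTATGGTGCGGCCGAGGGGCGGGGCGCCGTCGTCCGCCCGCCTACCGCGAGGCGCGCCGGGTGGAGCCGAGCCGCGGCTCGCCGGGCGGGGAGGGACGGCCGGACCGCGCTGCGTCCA
Zfp984: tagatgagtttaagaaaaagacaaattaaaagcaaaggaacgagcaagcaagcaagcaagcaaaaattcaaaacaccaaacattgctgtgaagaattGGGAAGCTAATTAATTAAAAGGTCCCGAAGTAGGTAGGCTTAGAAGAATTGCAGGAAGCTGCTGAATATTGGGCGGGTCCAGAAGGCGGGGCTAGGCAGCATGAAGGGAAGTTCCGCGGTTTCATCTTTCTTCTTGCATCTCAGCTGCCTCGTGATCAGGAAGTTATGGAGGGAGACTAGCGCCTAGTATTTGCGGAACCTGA
Mest: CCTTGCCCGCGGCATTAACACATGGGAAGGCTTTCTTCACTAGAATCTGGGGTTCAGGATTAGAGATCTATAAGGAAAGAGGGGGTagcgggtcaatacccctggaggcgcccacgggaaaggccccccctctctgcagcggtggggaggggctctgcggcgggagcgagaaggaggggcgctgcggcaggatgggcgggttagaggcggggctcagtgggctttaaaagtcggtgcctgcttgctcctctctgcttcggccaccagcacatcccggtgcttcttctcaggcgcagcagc
The windows are Abcg2 at chr6:58596422-58596721 (+ strand), Vmn2r29 at chr7:7278240-7278539 (- strand), Tmem267 at chr13:119488223-119488522 (+ strand), Zfp984 at chr4:147809739-147810038 (- strand) and Mest at chr6:30737800-30738099 (+ strand). CpG dinucleotides, the sites of DNA methylation, numbered 10, 23, 50, 9 and 17 in this order. The median was 9 in the 25 windows with both marks (range 1 to 50), 21 in windows with H3K4me3, 4 in windows with H3K9me3 and 7 in all windows. Only 0.879% of all windows had as many CpG as that of Tmem267. The letters TGCCGC, the core bound in methylated form by the imprinting factor ZFP57, were searched on both strands. They occurred at 2 places in the Mest window and in none of the other 4, in 2 of the 25 windows with both marks (8%) and in 11.6% of all windows.

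The promoter windows printed above differed in which libraries marked them. The window of Abcg2, which encodes an efflux transporter of drugs and urate, lay wholly in peaks of H3K9me3 and of H3K4me3 in all 6 WT and KO libraries, with 300 bp in each. At the vomeronasal receptor gene Vmn2r29 the 300 bp lay in H3K9me3 peaks in both genotypes, while H3K4me3 held 300 and 9 bp in WT replicates 1 and 2 and 56 and 41 bp in KO. The Tmem267 window had H3K4me3 over 300 bp in all 4 libraries and H3K9me3 over 226 bp in WT and 201 bp in KO. The Zfp984 window had H3K9me3 over 203 bp in WT and 193 bp in KO, with H3K4me3 over 300 and 256 bp in WT and 300 and 300 bp in KO. At Mest, an imprinted gene of the hydrolase family expressed from the father's allele, H3K9me3 held 86 bp in WT and 41 bp in KO. H3K4me3 held 127 and 0 bp there in WT replicates 1 and 2 and 0 and 131 bp in KO, so that WT replicate 1 and KO replicate 2 marked the window and the other libraries did not.

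Wide H3K9me3 domains were the ones that most often contained H3K4me3. The dual-marked peaks had a median width of 2774 bp (quartiles 1039.75 and 6775.5, range 128 to 94634), and the other 52672 peaks one of 549 bp. Of peaks of 10000 bp and over, 227 of 291 (78.0%) were dual-marked, against 203 of 940 (21.6%) from 5000 bp to under 10000 bp and 189 of 24319 (0.777%) under 500 bp. A wider peak offers more bases for an overlap, so the share is bound to grow with width. The authors' fold of the H3K9me3 peak had a median of 3.82 in dual-marked and 3.44 in other peaks. H3K4me3 filled little of the domain, with a median of 258.5 bp and 12.6% of the peak, and 850 peaks held 1 stretch of both marks, 48 held 10 or more and 1 held 39. In 362 peaks the H3K4me3 ran over an edge of the H3K9me3 peak, and 82 lay wholly within H3K4me3.

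**Figure D1:**
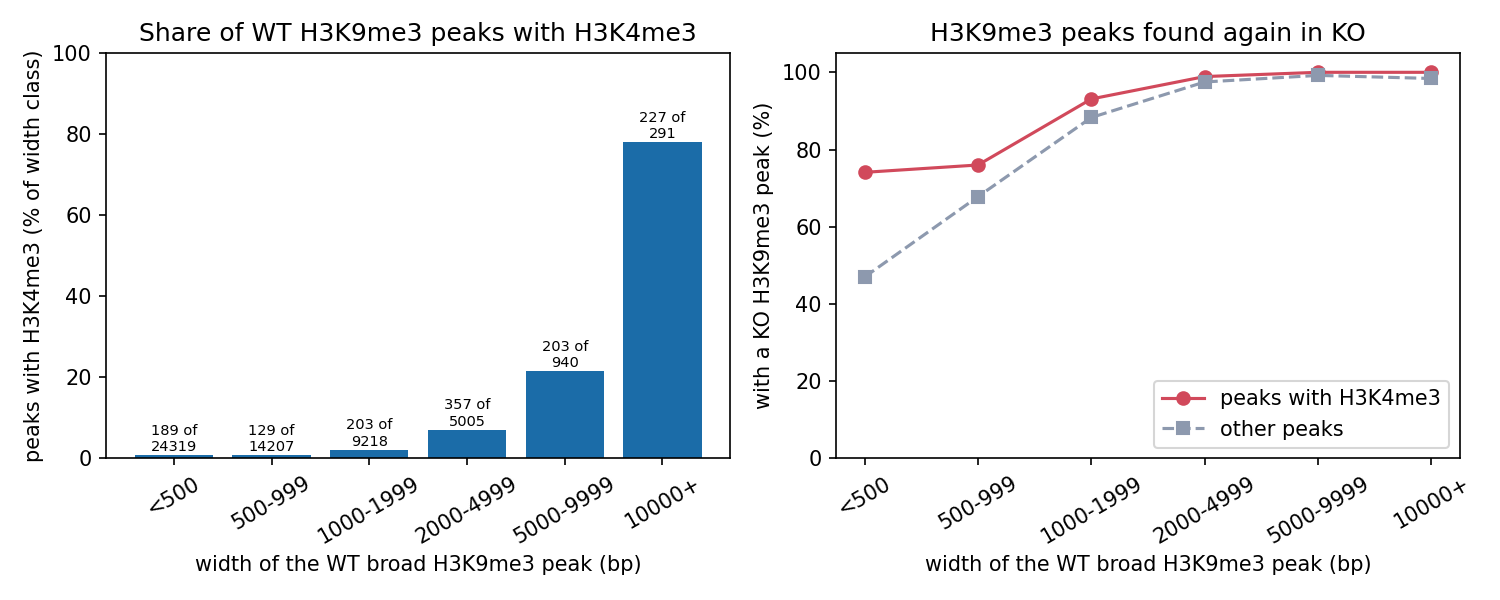
Left, share of WT broad H3K9me3 peaks that share at least 1 bp with WT H3K4me3, by width of the H3K9me3 peak in bp, with counts over the bars. Right, share with a KO H3K9me3 peak for dual-marked (circles) and other peaks (squares). The left share climbs from 0.777% to 78.0%, and the right shares differ most under 500 bp, 74.1% against 47.0%.

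Several of the widest domains lay over clusters of Zfp genes. The longest, at chr4:146451894-146546527 (94634 bp) over Zfp981, Zfp992 and Zfp993, held 13249 and 1101 bp of H3K4me3 in WT replicates 1 and 2, and 21502 and 1332 bp in those of KO, and 98.6% of it lay in KO H3K9me3 peaks. At chr7:42553744-42626491 (72748 bp), over Zfp976 and Zfp977, the H3K4me3 lengths in the same order were 9641, 0, 10675 and 0 bp. A domain of 42668 bp at chr10:81711070-81753737, over Zfp433, held 9473, 0, 9799 and 0 bp. In each of these the replicate 1 libraries of both genotypes were high and the replicate 2 libraries were low or at 0. The 10 bins of 1 Mb with the most bases in both marks held 35.7% of all such bases, led by chromosome 17 from 17 to 18 Mb (56.7 kb in 13 peaks) and from 22 to 23 Mb (46.3 kb in 16 peaks). Of their protein-coding genes, 2 of 15 and 6 of 11 were of the Zfp family. Chromosome 10 from 81 to 82 Mb held 44.2 kb in 14 peaks, with 2 Zfp genes of 51. Zfp genes were taken by symbol, here and throughout. A zinc finger gene under another symbol, such as Gm and a digit, is therefore counted among the other genes. The bin from 67 to 68 Mb of chromosome 13 held 40.0 kb in 22 peaks, with 23 of 27, and chromosome 9 from 3 to 4 Mb held 38.1 kb in 3 peaks, with 0 of 3.

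Dual-marked peaks lay in or beside genes more often than H3K9me3 peaks in general, but they were chosen by H3K4me3, which itself often lies in genes. A protein-coding gene body was touched by 644 (49.2%, interval 46.5 to 52), against 26.2% of all WT H3K9me3 peaks. An end of such a gene lay within 1 kb of 281 (21.5%, interval 19.3 to 23.8), against 1.86% of all. Where the strand of the gene was known, the end was a start at 67 peaks (5.12%) and a 3′ end at 189 (14.4%). At a distance of over 5 kb to the nearest protein-coding gene lay 572 peaks (43.7%), against 68.9% of all H3K9me3 peaks. Beside H3K4me3 the order was the reverse. Of the single stretches in both marks, 58.2% touched a gene body and 33% lay over 5 kb from genes. For WT H3K4me3 regions outside H3K9me3 peaks these shares were 67.6% and 21.1%. Pseudogenes were touched by 13.5% of dual-marked and 2.77% of all peaks, and lncRNA genes by 9.63% and 8.24%. Width moves with these shares: within peaks of 10000 bp and over, 53.7% of dual-marked and 6.25% of other peaks were near a gene end, and under 500 bp 5.82% and 1.13%.

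Peaks at starts and peaks at 3′ ends differed in their medians, although the groups overlap. A peak within 1 kb of both a start and a 3′ end, as over a short gene, is counted in both. Those at a 3′ end had a median width of 11856 bp and a median of 1876 bp of H3K4me3, and 6 of the 189 (3.17%) had H3K4me3 in both WT replicates. Those at a start had medians of 4537 bp and 440 bp, and 20 of 67 (29.9%) had both replicates. Away from gene ends, peaks in gene bodies (n = 390) had a median width of 2183.5 bp with 232 bp of H3K4me3, and peaks over 5 kb from genes (n = 572) had medians of 2224 bp and 207 bp.

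Among the gene lists, Zfp genes had the highest share with a dual-marked peak. Of 20661 protein-coding genes, 596 (2.88%) had one in the body or within 1 kb, and of 388 Zfp genes 146 (37.6%) did. H3K9me3, with or without H3K4me3, was at 231 Zfp genes (59.5%), against 22.9% of all genes. The count of dual-marked Zfp genes rests on H3K4me3 replicate 1, and without that WT library it was 8. Stretches in both marks came to a median of 2100.5 bp per Zfp gene with a dual-marked peak and 328 bp per other gene with one. Zfp gene bodies held 32.3% of all bases in both marks and 4.21% of the WT H3K9me3 bases. The second share was summed gene by gene, so a base in overlapping Zfp genes counts in it more than once.

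Within Zfp genes the shared bases lay in the 3′ part, where the finger exon lies in KRAB Zfp genes. In 127 Zfp genes of at least 2000 bp with a known strand and a dual-marked peak, bins 8 to 10 of 10 equal bins from start to 3′ end held 70.1% of the bases in both marks, and bin 1 held 2.37%. For all WT H3K9me3 bases in these genes the shares were 42% and 4.18%, and for all WT H3K4me3 bases 47.2% and 25.7%. H3K4me3 in these genes lay at the start and again in the 3′ part, but the genes were picked for shared bases. In bin 9, 82132 of the 83000 H3K4me3 bases were shared ones, and the part of that choice in the place at the 3′ part was not tested. The H3K4me3 at H3K9me3-marked 3′ ends rested on replicate 1. Of 131 Zfp 3′ ends with H3K9me3, 0 had H3K4me3 in replicate 2 of WT or of KO. In the 336 other protein-coding genes with a dual-marked peak, bins 8 to 10 held 59.3% of the shared bases but 25.4% of the H3K4me3 bases. These can include zinc finger genes under other symbols. The genes were picked for their shared bases, so these profiles are descriptions.

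**Figure D2:**
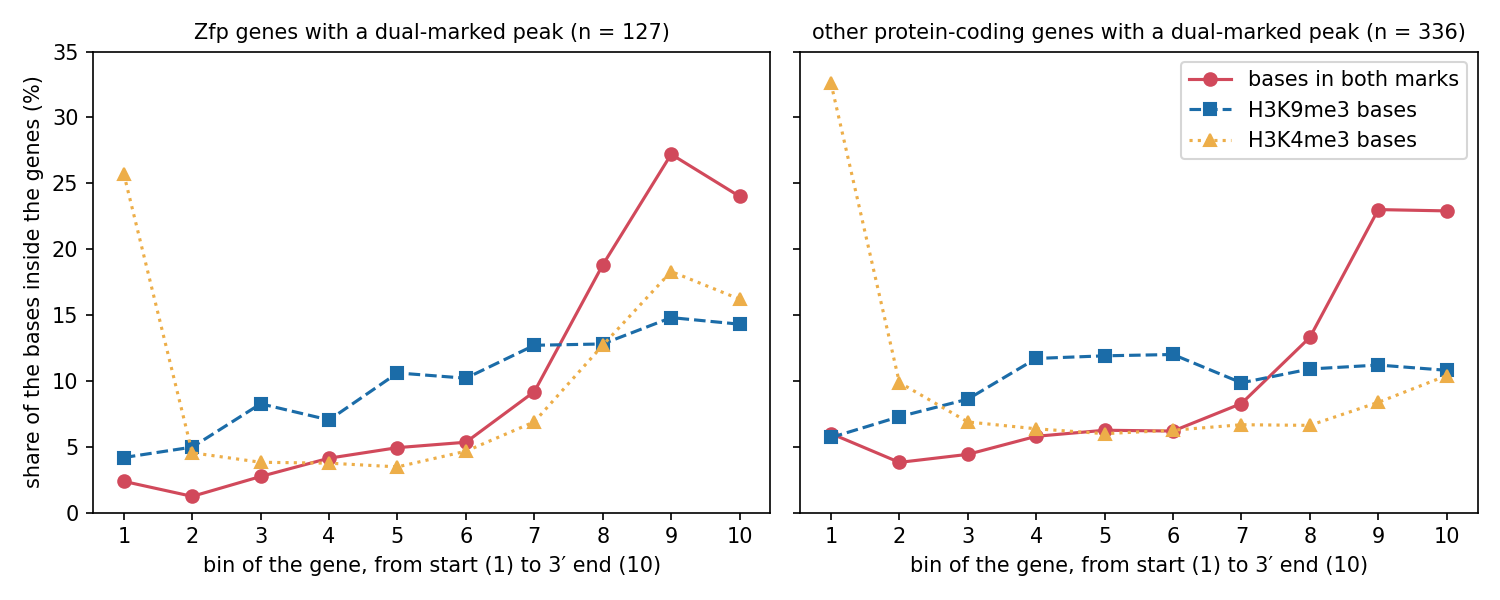
Share of the bases inside the genes (%) by bin of the gene, of 10 equal bins from start to 3′ end, for bases in both marks (circles), H3K9me3 (squares) and H3K4me3 (triangles) in WT. In Zfp genes the bases in both marks reach 27.2% in bin 9 and 24% in bin 10, against 2.37% in bin 1.

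The counts at gene ends showed the same order. Of 325 Zfp genes with a known strand, 131 (40.3%) had WT H3K9me3 within 1 kb of the 3′ end, and 53 (16.3%) had a base in both marks there. At the starts of the same genes 22 (6.77%) had H3K9me3, 280 (86.2%) had H3K4me3 and 1 (0.308%) had a base in both. In 16131 other protein-coding genes, 66 3′ ends (0.409%) and 45 starts (0.279%) had a base in both. Of the 53 Zfp 3′ ends, 45 had a base in both marks in KO as well. Among the other genes 51 of the 66 3′ ends and 30 of the 45 starts did.

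H3K4me3 at H3K9me3-marked Zfp 3′ ends was called in the replicate 1 libraries only. Of the 131 ends with WT H3K9me3, 53 (40.5%) had H3K4me3 in WT replicate 1, 0 in WT replicate 2, 55 (42%) in KO replicate 1 and 0 in KO replicate 2. At the 194 Zfp 3′ ends without H3K9me3 the numbers in the same order were 18, 11, 17 and 12. The replicates of 1 genotype therefore differed far more than the genotypes did within a replicate. Replicate 1 lists were longer throughout, with 70687 peaks in WT and 71868 in KO against 24917 and 26206 in replicate 2, and the 2921 WT replicate 1 peaks in H3K9me3 were weak, with a median fold of 4.08 against 6.42 elsewhere. Peaks of WT replicate 1 with a fold of 5 to under 7 were found in WT replicate 2 at 10.5% in H3K9me3 and 9.32% elsewhere. The shares were 2.41% and 2.3% at a fold under 4, 3.7% and 4.02% at 4 to under 5, 32.7% and 22.7% at 7 to under 10, and 79.5% and 89.4% at 10 and over, so they were close in the lower classes and differed either way in the higher ones. Zfp genes of a cluster are near copies of each other, and the part of reads that fit several copies was not tested.

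**Figure D3:**
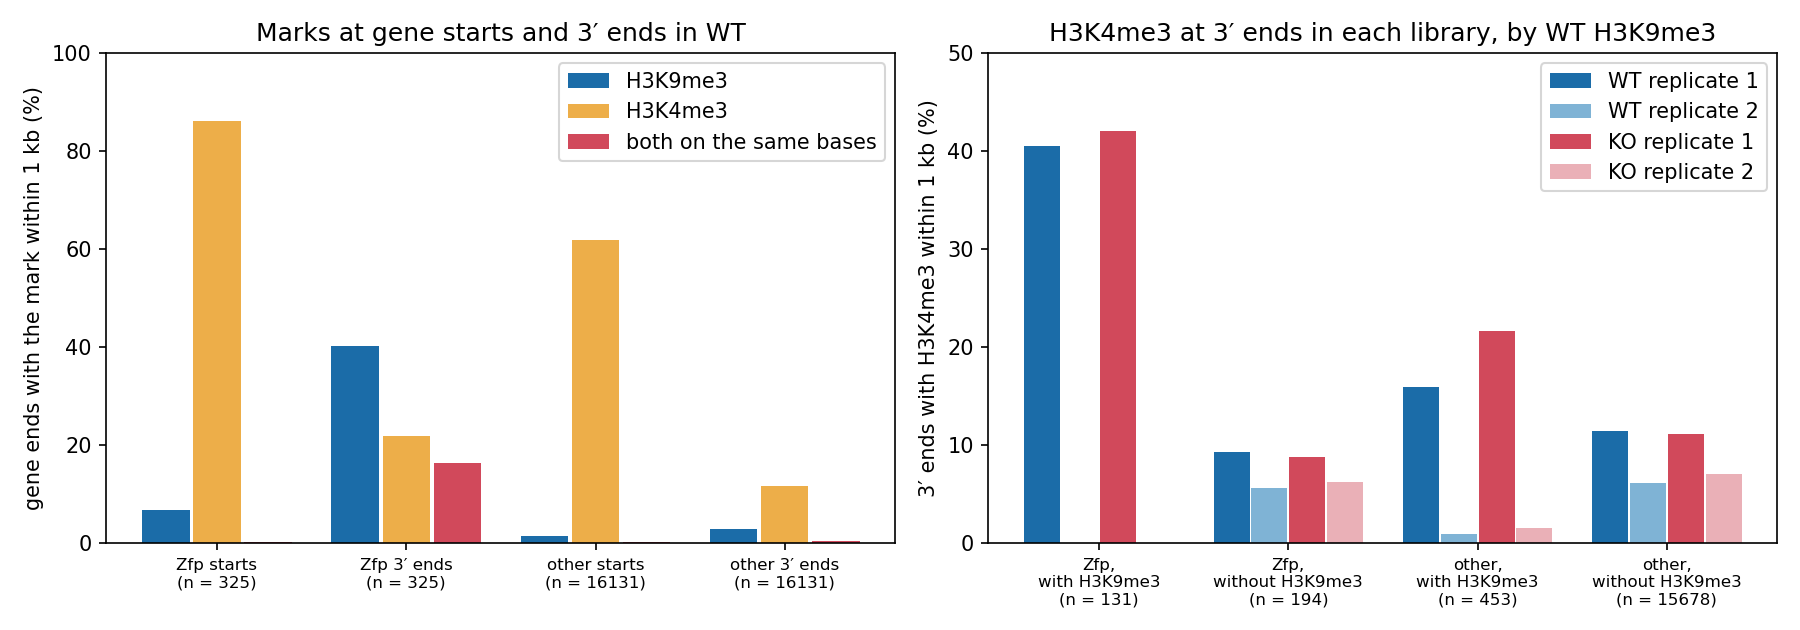
Left, share of gene starts and 3′ ends (%) with WT H3K9me3, WT H3K4me3 or both on the same bases within 1 kb. Right, share of 3′ ends with H3K4me3 in each of the 4 libraries, for ends with and without WT H3K9me3. At Zfp 3′ ends with H3K9me3 the replicate 1 bars stand at 40.5% and 42% and the replicate 2 bars at 0.

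Single Zfp genes followed this split. Zfp942 was the named gene with the most shared bases within 1 kb of its 3′ end (1680 bp). In the gene or within 1 kb it had 10818 bp in both marks in WT with H3K4me3 replicate 1 and 0 with replicate 2. In KO it had 11313 and 0 bp. Zfp938 had 3111 and 0 bp in WT and 3359 and 0 bp in KO. At Zfp977 the values were 3105, 0, 3619 and 0 bp in the same order, and at Zfp97 9648, 0, 13692 and 139 bp. Each had at least as many bases in both marks in KO replicate 1 as in WT replicate 1. Zfp943 (4435 and 4116 bp in WT and KO replicate 1) had fewer, as did AU041133 (8104 and 7681 bp), which is not a Zfp gene by symbol. Zfp534, Zfp640, Zfp119a and Zfp433 completed the 10 named genes with the most shared bases at the 3′ end, with 1271, 1267, 1164 and 1135 bp there. Across all Zfp genes, 143 had shared bases with WT replicate 1, 7 with WT replicate 2, 150 with KO replicate 1 and 7 with KO replicate 2.

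At gene starts the most bases in both marks lay mainly at genes of other kinds. Tmem267, which encodes a membrane protein, had 789 bp within 1 kb of its start, and its whole gene held 1245 and 1395 bp in both marks with WT replicates 1 and 2 and 1627 and 973 bp in KO. Vmn2r29 followed with 720 bp, then Tcfl5, which encodes a transcription factor of spermatogenesis, with 556 bp and Eps8l1 with 517 bp. Over the whole gene and 1 kb either side, Eps8l1 had 313 and 517 bp in WT and 240 and 341 bp in KO. Zfp982 (411 bp), the splicing factor gene Zranb2 (411 bp), Duxf3 (407 bp), the odorant receptor gene Olfr212 (373 bp), Zscan18 (360 bp) and Map10 (348 bp) came next. Of these 10, Tmem267, Vmn2r29, Eps8l1, Zfp982 and Zranb2 had shared bases with WT replicate 2 somewhere in the gene or within 1 kb. Counted in that way, only Map10 had none in KO. These are not counts at the starts alone.

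Inside gene bodies, away from the ends, Zfp genes led again. Zfp993 held 17122 bp in both marks, Zfp978 16027 bp, Zfp110 9499 bp and Zfp942 9138 bp. The 10 named genes with the most such bases also included AU041133, Tcf4 and Sfi1. Tcf4, a transcription factor gene of the nervous system and of lymphocytes on chromosome 18, had 6345 and 1681 bp with WT replicates 1 and 2 and 4884 and 3057 bp with KO replicates. Sfi1, a centrosome gene, had 6485, 731, 6700 and 757 bp, but its peak was of a kind described below, in which the fold was low.

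In knockout liver the H3K9me3 part of the dual-marked peaks was mostly found again. A KO H3K9me3 peak overlapped 1210 of the 1308 (92.5%, interval 90.9 to 93.9), against 65.5% of all WT peaks, and 87.6% of their summed length lay in KO peaks. Width moves with this: from 2000 to under 5000 bp the share was 98.9% in dual-marked and 97.5% in other peaks, from 1000 to under 2000 bp 93.1% and 88.3%, and under 500 bp 74.1% and 47.0%. From 5000 bp upward every dual-marked peak had one, as did 99.2% of the others under 10000 bp and 98.4% of the wider ones.

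H3K4me3 was found again at 877 dual-marked peaks (67.0%, interval 64.4 to 69.6) in either KO replicate, at 850 (65.0%) in replicate 1 and at 233 (17.8%) in replicate 2. Of all WT H3K9me3 peaks 3.05% had KO H3K4me3, but the dual-marked peaks were chosen by WT H3K4me3, so these shares are not alike in kind. The H3K4me3 peaks themselves give a closer comparison. In WT replicate 1, 60.9% of H3K4me3 peaks in H3K9me3 were found in KO replicate 1, against 82.4% elsewhere and 81.5% of the whole list. At a like fold the shares were closer: 49.6% and 44.2% at a fold under 4, 58.6% and 61.4% at a fold of 4 to under 5, 84.9% and 86.0% at 5 to under 7, and 98.8% and 98.7% at 7 to under 10. In WT replicate 2, 71.7% of the 360 H3K4me3 peaks in H3K9me3 were found in KO replicate 2, against 94.8% elsewhere and 94.5% of the whole list. There the share was lower in H3K9me3 in each fold class, by an amount that varied. It was 58.4% of 113 peaks against 65.4% of 572 at a fold under 4, 66.7% of 39 against 76.2% of 1800 at 4 to under 5, and 51.6% of 62 against 86.0% of 3599 at 5 to under 7. At 7 to under 10 it was 82.2% of 45 against 95.9% of 2608, and at 10 and over 96.0% of 101 against 99.8% of 15978.

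Both marks were called in KO at 800 dual-marked peaks (61.2%, interval 58.5 to 63.8), and at 777 of the 1308 they shared a base within the peak. Over all WT H3K9me3 peaks 2.83% had both marks in KO, which the choice of peaks fixes in the same way. H3K9me3 alone was called in KO at 410 peaks (31.3%), H3K4me3 alone at 77 (5.89%) and neither mark at 21 (1.61%). By place, both marks were called in KO at 171 of 189 peaks at a 3′ end (90.5%) and 54 of 67 at a start (80.6%). A peak near both kinds of end is counted in both. The shares were 53.8% of those in gene bodies away from the ends and 54% of those over 5 kb from genes.

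The 161 peaks with H3K4me3 in both WT replicates had KO H3K4me3 more often, and KO H3K9me3 less often, than the whole set. They were narrower, with a median of 1126 bp, and H3K4me3 filled a median of 51.4% of the peak. H3K4me3 was called in KO at 160 of them (99.4%) and in both KO replicates at 144 (89.4%), while H3K9me3 was called at 123 (76.4%, interval 69.1 to 82.7). Both marks were called at 122 (75.8%), H3K4me3 alone at 38 (23.6%) and H3K9me3 alone at 1. Among peaks with WT replicate 1 only, both marks were called in KO at 61.5% and H3K9me3 alone at 33.1%, and with WT replicate 2 only at 30.7% and 65.9%.

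**Figure D4:**
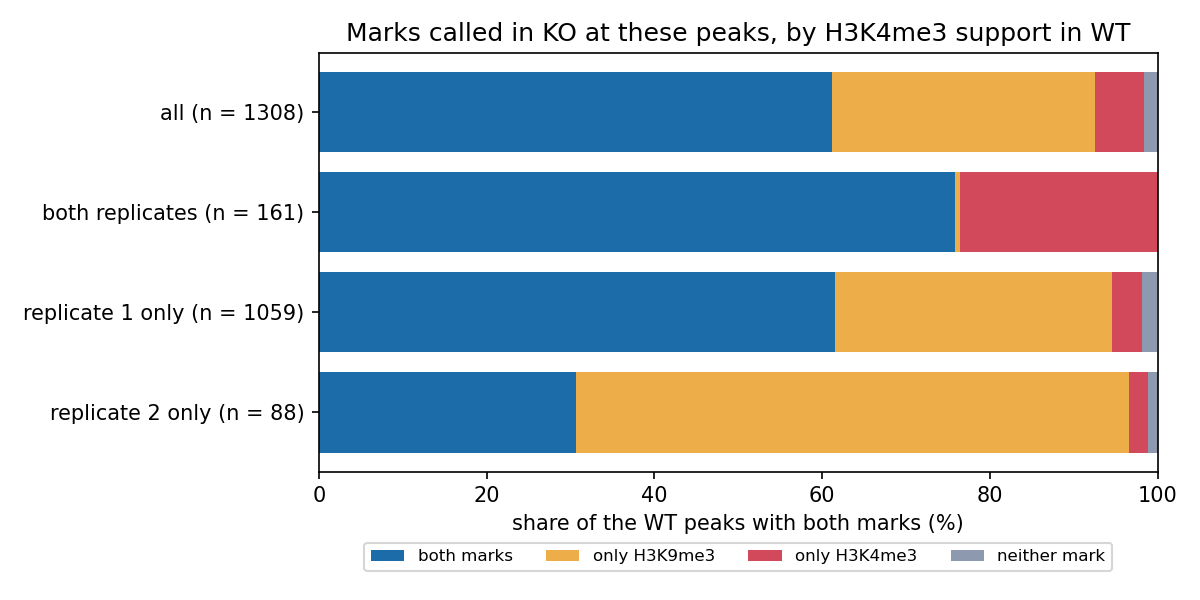
Share of dual-marked WT peaks (%) at which KO lists held both marks, only H3K9me3, only H3K4me3 or neither, by the WT replicates that gave the H3K4me3 peak. With both replicates 23.6% of peaks had only H3K4me3 in KO, and with replicate 1 alone 3.49%.

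Bases in both marks were more numerous in KO than in WT. They came to 1.07 Mb in WT and 1.31 Mb in KO, although the H3K9me3 lists of WT and KO spanned 56.4 and 48.5 Mb. With replicate 1 H3K4me3 the lengths were 1.04 and 1.29 Mb, and with replicate 2 0.0953 and 0.108 Mb. In the 161 peaks with both replicates, H3K4me3 covered 144 and 79.1 kb in WT replicates 1 and 2 and 178 and 98.5 kb in KO, ratios of 1.24 and 1.25. The whole lists had ratios of 0.987 in replicate 1 and 1.18 in replicate 2, so the replicate 2 ratio was close to that of its list. H3K4me3 was longer in KO within both replicates at 66 of the 161 and shorter in both at 20. No such counts were made for H3K4me3 peaks elsewhere, so these have no baseline. The labels do not say that the replicate numbers pair samples. The same rule in KO gave 1661 of 50069 H3K9me3 peaks (3.32%). Of these 837 lay at a WT dual-marked peak, 721 at a WT H3K9me3 peak that was not one, and 103 at none.

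Peaks that lacked H3K9me3 in KO were short and mostly kept H3K4me3. They numbered 98, with a median width of 500.5 bp, and 77 of them had KO H3K4me3. The 10 genes with the highest WT H3K9me3 fold among them had folds between 3.56 and 4.06. At Ppat, the gene of the first enzyme of purine synthesis, H3K4me3 covered 409 and 269 bp in WT replicates 1 and 2 and 669 and 776 bp in KO. At Pkd1l1, a polycystin gene of left-right patterning, the values were 479, 619, 711 and 711 bp in the same order, the last 2 being the whole peak. Pik3c2a, a lipid kinase gene, had 410, 563, 617 and 617 bp, and the receptor kinase gene Grk5 427, 367, 812 and 924 bp. In these 4 genes each KO value was above both WT values. Dennd4a, Ccdc30 and Tiam1 had H3K4me3 in WT replicate 1 only, with 209, 99 and 211 bp, and 209, 66 and 311 bp in KO replicate 1. Sgcd, Cyp2c23 and Setdb2, the last a gene of the H3K9 methyltransferase family, had 144, 53 and 66 bp in WT replicate 1 and 0 in KO. Over the 38 peaks with both WT replicates and no KO H3K9me3, all 38 had H3K4me3 in both KO replicates, and its length was 1.66 times that of WT in replicate 1 and 1.4 times in replicate 2.

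Where H3K4me3 was missing in KO, H3K9me3 mostly stayed, as it did in the whole set. It was called in KO at 410 such peaks and absent at 21, and over all dual-marked peaks 92.5% had it. The 10 with the highest H3K9me3 fold among those at named genes were Sspn (5.09), Asb3 (4.52), Klf14 (4.51), Zfp397 with Zscan30 (4.48), Alg6 (4.47), Iqcj with Iqschfp (4.43), Zfp286 (4.4), Tnfrsf22 (4.36), Hs6st3 (4.36) and Cdkl4 (4.3). Their WT H3K4me3 lengths ran from 139 bp at Tnfrsf22 to 392 bp at Alg6, a gene of N-glycan assembly, and each was called in 1 WT replicate only. H3K9me3 in KO covered 23.7% of the peak at Sspn, 59.7% at Iqcj and between 74.1% and its whole length at the others.

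Imprinted genes had dual-marked peaks at 9 of 69 measured (13%), against 2.88% of all protein-coding genes, and 28 of the 69 (40.6%) had H3K9me3, against 22.9%. The imprinted genes were longer, with a median of 36304 bp against 17491 bp, and a longer gene offers more bases for a peak. The part of length in these shares was not tested. The count was 2 without WT H3K4me3 replicate 1, and 0 with H3K9me3 peaks limited to q-values up to 1e-05. The list also holds noncoding genes such as Peg13, which the comparison with protein-coding genes does not. They were Peg13, Trappc9, Slc38a4, Impact, Sgce, Peg10, Mest, Klf14 and Mkrn3, and Peg13 with Trappc9 and Peg10 with Sgce share a peak. The list was assembled with earlier results of these data known. In the gene or within 1 kb, a stretch in both marks was called in KO at 7 of the 9, the exceptions being Sgce and Peg10. Of the 596 protein-coding genes with a dual-marked peak, 444 had such a stretch in KO, a like share.

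The clearest case was Peg13, a noncoding RNA gene inside an intron of Trappc9. Its peak at chr15:72808901-72812070 (3170 bp, H3K9me3 fold 3.47) held 2259 and 2004 bp of H3K4me3 in WT replicates 1 and 2 and 2238 and 2206 bp in KO, with 2189 bp of KO H3K9me3. It was the only imprinted site with H3K4me3 in all 4 libraries at like lengths. At Impact, a gene of translation control on chromosome 18, the peak of 421 bp held 146 and 0 bp in WT and 184 and 12 bp in KO, with 416 bp of KO H3K9me3. Slc38a4, an amino acid transporter gene of hepatocytes, had a peak of 890 bp with 609 and 0 bp of H3K4me3 in WT and 611 and 0 bp in KO, and no KO H3K9me3 in that peak. Elsewhere in the gene KO H3K9me3 covered 1383 bp, and 1040 bp were in both marks in KO. The peak of 528 bp shared by Peg10, a gene derived from a retrotransposon, and Sgce, a sarcoglycan gene, likewise had no KO H3K9me3. Its H3K4me3 came to 437 and 0 bp in WT and 429 and 214 bp in KO.

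Mest had 2 peaks, of 302 and 285 bp, with 270 and 93 bp of H3K4me3 in WT replicate 1 and none in WT replicate 2. In KO replicate 2 both were covered whole, and KO H3K9me3 covered 257 and 209 bp. Klf14, a Krüppel-like transcription factor gene, had peaks of 3032 and 1901 bp that stayed whole in KO H3K9me3. Both lay wholly in H3K27me3 islands in WT and KO, and replicate 1 H3K4me3 held 380 and 530 bp of them in WT, against 0 and 466 bp in KO. At Mkrn3, a ubiquitin ligase gene, 24 bp of the 239 bp peak were shared in WT, and 54 bp in KO.

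**Figure D5:**
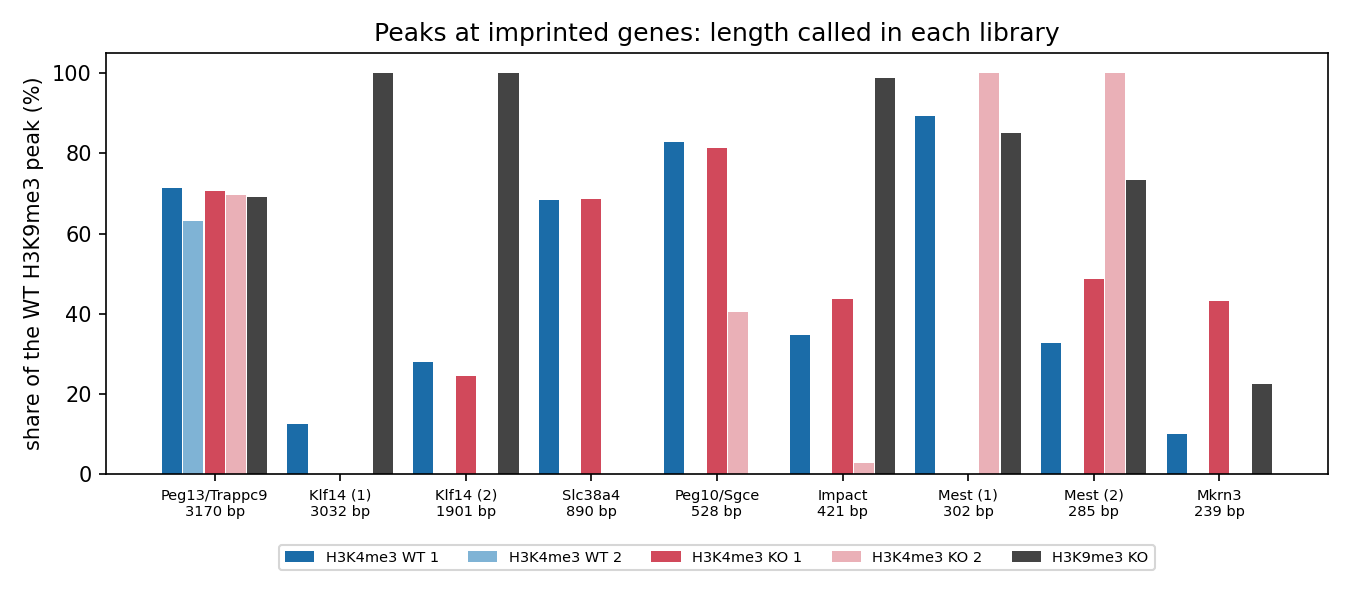
Share of each WT H3K9me3 peak at imprinted genes (%) that lay in H3K4me3 peaks of the 4 libraries and in KO H3K9me3 peaks, with peak widths in bp under the names. Only the Peg13 peak has H3K4me3 bars in all 4 libraries; the Slc38a4 and Peg10 peaks have no KO H3K9me3 bar.

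Among the other gene lists, the counts are to be read beside the 2.88% of all protein-coding genes, and beside gene length. The median gene was 90252 bp long in the protocadherin list, 36424 bp in the germline list and 41671.5 bp in the machinery list. Over all protein-coding genes it was 17491 bp. Clustered protocadherin genes, which encode adhesion proteins of neurons, had 18 of 57 (31.6%), but these genes overlap each other and 7 peaks underlie the count. Of 48 germline genes 4 (8.33%) had one: the piRNA pathway genes Tdrd1 and Tdrd9, with 459 and 415 bp in both marks in WT and 519 and 363 bp in KO, and the testis histone genes H2ac1 and H2bc1, which share 1 peak with 153 bp in WT and 0 in KO. Among 32 genes of the H3K9 and DNA methylation machinery 3 (9.38%) had one. Zfp445, which binds imprinted regions, had 2216 bp in WT and 3010 bp in KO, Hells 173 and 0 bp, and Setdb2 66 and 0 bp. H4c17 was the third replication histone gene of 62. Its peak of 2266 bp held 1109 and 698 bp of H3K4me3 in WT and 1864 and 2122 bp in KO, while H3K9me3 in KO covered 288 bp.

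In the gene or within 1 kb, WT H3K4me3 lay at all 48 hepatocyte genes measured, 16 of 16 endothelial, 15 of 16 stellate and fibroblast, 10 of 15 macrophage, 10 of 15 bile duct and 6 of 19 lymphocyte genes, and at 14903 of the 20661 protein-coding genes. Dual-marked peaks lay at 0 or 1 gene of each of these cell type lists, which are too short to be told from the 2.88% of all protein-coding genes. Of 48 hepatocyte genes Serpinf2, the plasmin inhibitor gene, had one (212 bp, WT replicate 1), and none in KO. Of 16 stellate and fibroblast genes Lrat, the gene of retinol esterification, had one, with 17 and 371 bp in both marks with WT replicates 1 and 2 and 165 and 165 bp in KO. Endothelial, macrophage, lymphocyte and bile duct lists had 0 of 16, 15, 19 and 15 genes, housekeeping and ribosomal protein genes 0 of 28 and 79, and Hox and Mup genes 0 of 39 and 22. The olfactory receptor list had 1 of 1104 and the vomeronasal list 1 of 352.

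Some dual-marked peaks combined a low fold with a very small q-value. A fold under 3 with a minus log10 q of 5 or more was found at 48 dual-marked peaks (3.67%) and at 15 others (0.0285%). They held 72.4 kb of the bases in both marks (6.77%), had KO H3K9me3 at 48 of 48 and included 13 with both WT replicates. The largest, at chr9:3000006-3038298 (38293 bp, fold 2.53), lay in H3K4me3 over 37792 and 13428 bp in WT and 37463 and 10343 bp in KO, and over its whole length in H3K27me3 islands of both WT libraries and in none of KO. The peak at chr17:39842997-39848808 (5812 bp) lay whole in H3K4me3 replicate 1 of both genotypes and in WT H3K27me3. Marks that seldom meet were thus called over the same bases in these places, and the part of repeated sequence in it was not tested.

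The highest H3K9me3 folds among dual-marked peaks lay close together beside Fcgr3, an antibody receptor gene of macrophages. The peaks at chr1:171065956-171071624, chr1:171074064-171079530 and chr1:171081750-171085466 had folds of 6.61, 6.4 and 6.69. In WT, replicate 1 H3K4me3 covered 2798, 3571 and 2134 bp of them and replicate 2 covered 1113, 410 and 674 bp. The KO values were 3613, 3827 and 2058 bp for replicate 1 and 0, 315 and 0 bp for replicate 2. All of these lay wholly in H3K27me3 islands in WT and KO. Over all dual-marked peaks 17% and 20.1% met an H3K27me3 island in WT replicates 1 and 2 and 15.3% in KO, against 14.4%, 17.5% and 15.4% of all WT H3K9me3 peaks.

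At the edge of the rule the peaks were alike in width and fold. The 56 dual-marked peaks that shared 100 bp or less had a median width of 646.5 bp and a median fold of 3.46, and 82.1% had KO H3K9me3 and 48.2% KO H3K4me3. The 62 peaks that ended within 100 bp of an H3K4me3 peak without sharing a base had medians of 694 bp and 3.49, with 64.5% and 21%. Of the 221 peaks that shared 1000 bp or more, with a median width of 13687 bp, all had KO H3K4me3 and 99.5% KO H3K9me3.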

How the data were processed

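Peak lists from 9 ChIP-seq libraries of mouse liver were used, and groups were taken from the labels. Per the submitters' processing notes, the authors worked with FastQC 0.11.5, Trimmomatic, BWA and Picard, called regions with MACS2 and SICER, and used GRCm38.p4 or mm10, which are the same build. Their settings, controls and read depth: not given in the sources used here. H3K4me3 and H3K9me3 lists are per library and give the authors' fold enrichment (a ratio over control) and the deposited −log10 of the q-value of each peak. H3K27me3 lists are deposited SICER islands, used at the authors' FDR, a corrected p-value, of 0.01 or below. Lists of 30, 40 and 96 h of regeneration were not used.

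A peak counted as dual-marked with 1 bp of overlap. Genes, and promoter sequences, came from RefSeq tables of GRCm38.p6. The gene table has no strand, so the strand was taken from the promoter table (16456 of 20661 protein-coding genes), and genes without one have an end of unknown side, in place of the planned use of H3K4me3 to pick the start. The dual-marked peaks and gene lists were chosen with earlier results of these data known. Genes were named by fixed rules: every imprinted gene with a peak, up to 5 per other list and the 10 with the most shared bases at starts, 3′ ends and bodies. The same was done for the 10 with the highest fold where a mark was absent in KO, and the 10 longest peaks. Symbols of Gm and a digit, LOC or Rik were left out, and not every gene so chosen is printed. Peaks with the highest folds, and those with a low fold and small q-value, were picked after the values were seen. The tools were pandas 2.3.3 and numpy 2.4.6 under Python 3.11.15, with matplotlib 3.10.9 for plots and scipy 1.17.1 for intervals. The overlap code was tested on simulated lists and matched a base by base count in 500 of 500 windows. Depth is unknown, and its part in the absence of a peak from a list was not tested.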

Additional observations from a re-analysis of the deposited data

How the results depend on the processing

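Of 97 alternative values, 40 stayed close to the reported one (within 1.5 times for a count or median width, within the interval for a share) and 57 moved. With H3K4me3 required in both WT replicates, there were 161 peaks of median width 1126 bp, 41% in gene bodies and 16.1% near a gene end. KO H3K9me3 was then at 76.4%, KO H3K4me3 at 99.4% and both at 75.8%, with 2 imprinted and 8 Zfp genes. Leaving out single H3K4me3 libraries gave 249 to 1220 peaks, median widths of 1079 to 2993.5 bp, 38.2% to 50.4% in gene bodies, 11.6% to 22.8% near a gene end, 83.5% to 92.2% with KO H3K9me3, 17.8% to 75.9% with KO H3K4me3 and 14% to 63.4% with both. It gave 2 to 9 imprinted and 8 to 146 Zfp genes. The low ends came without WT replicate 1, or for the KO shares of H3K4me3 and of both marks without KO replicate 1, and leaving out replicate 2 of either genotype moved no value. With H3K9me3 restricted to q-values up to 1e-05, there were 180 peaks of 1834.5 bp, 27.2% near a gene end, with KO H3K9me3 at 84.4%, KO H3K4me3 at 87.8%, both at 74.4%, 0 imprinted and 24 Zfp genes. With H3K4me3 at that q-value there were 812 peaks, 53.7% in gene bodies, 27.7% near an end, and KO shares of 90.8%, 74% and 65.9%. With at least 10% of the peak in H3K4me3 there were 756 peaks of 1378 bp, 52% in gene bodies, 24.7% near an end, and KO shares of 88.1%, 75.3% and 65.6%. An overlap of at least the length of a nucleosome gave 24.9% near an end, 73.2% with KO H3K4me3 and 67.3% with both. Narrow H3K9me3 peaks gave a median of 666 bp, 53.4% in gene bodies, 13.4% near an end, and KO shares of 87.6%, 63.2% and 57%. A window of 5 kb gave 33% near an end. Chosen after seeing the data, H3K4me3 peaks of a fold of 5 or more gave 455 peaks, 57.6% in gene bodies, 35.6% near an end, KO shares of 86.2%, 75.8% and 64.4%, and 92 Zfp genes, and leaving out the peaks of low fold and small q-value moved no value. The cause was not tested. No paired analysis was possible because the results come from no test; lengths in libraries of the same replicate number are only set side by side. Depth is unknown and limits every statement that a peak is absent.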
